A study of Mus musculus with 12 samples.

Results

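The carnitine shuttle carries long-chain fatty acids into mitochondria. It is described here through 8 genes, Slc22a5, Cpt1a, Cpt1b, Cpt1c, Slc25a20, Cpt2, Crat and Crot, which were chosen by name for their part in the handling of carnitine and its esters, out of 24108 genes listed in the count table. The choice was made with earlier results of these data known. The libraries were bulk RNA-seq of neural progenitor cells (NPCs) from the subventricular zone (SVZ) of postnatal day 9 to 12 mice, labelled as strain C57BL/6. There were 4 groups of 3 libraries, since NPCs of each genotype, p53+/+ or p53-/-, were cultured either alone or in co-culture. NPCs alone were kept on laminin-coated plates for 48 h. Co-cultured NPCs were kept for the same time on a monolayer of primary mouse brain microvascular endothelial cells (bmvECs) and were then lifted off by selective trypsinization. The labels call the p53+/+ cells wild type. In the methods of the study, p53 was removed from NPCs homozygous for a loxP-flanked Trp53 gene by an adenovirus with a codon-improved Cre under the CMV promoter, control cells received an adenovirus with the promoter only, and cells were used within a few passages. The 3 libraries of a group came from 3 experiments, which the library names number as 17_9, 25_9 and 1_10.

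Total counts ranged from 16509710 to 22245224 per library, and the 8 genes together took 0.0489 to 0.107% of them. Trp53 was lower in all p53-/- libraries, with 14.6 ± 2.82 against 95.2 ± 14.2 CPM (counts per 1 M counts; mean ± SD, n = 3) in NPCs alone and 17.1 ± 2.99 against 68.8 ± 8.84 in co-culture. Cdkn1a, the p53 target encoding p21, a cell-cycle inhibitor, ranged from 4.74 to 31.2 CPM in p53-/- and from 350.2 to 458 CPM in p53+/+ libraries. The NPC marker list of 11 genes was expressed in every library. Its summed level differed between groups, but does not speak for each gene. It was 12545.5 to 15295 CPM in p53+/+ and 10858 to 12765 CPM in p53-/- NPCs alone. In co-culture it was 20914 to 29114 CPM in p53+/+ and 15908 to 18928 CPM in p53-/- NPCs. With co-culture 3 of 11 were called higher and 3 lower in p53+/+ NPCs (edgeR, adjusted p under 0.05). In p53-/- NPCs 2 were called higher and 3 lower. Over all genes 21.2% and 18.3% were called in p53+/+, and 18.8% and 17.0% in p53-/- NPCs. With p53 loss 0 of 11 were called (2.02 to 4.93% of all genes per direction). Blocking on the experiment gave 1 lower alone, and 1 higher and 3 lower in co-culture, beside 9.33%, 9.99% and 10.9% of all genes. Markers of bmvECs were present in the co-cultures. The summed level of 20 endothelial genes was 16.7 to 22.0 CPM in the 6 libraries of NPCs alone, 125 to 201 CPM in p53+/+ and 113 to 136 CPM in p53-/- co-cultures. In bulk RNA, fewer cells of a type and less RNA per cell cannot be told apart.

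Long-chain fatty acids are activated to acyl-CoA, which cannot cross the inner mitochondrial membrane. Carnitine palmitoyltransferase 1 (CPT1), on the outer membrane, moves the acyl group onto carnitine and is the step that malonyl-CoA inhibits. A carrier in the inner membrane exchanges acylcarnitine for free carnitine, and CPT2 returns the acyl group to CoA for β-oxidation. Of the CPT1 forms, Cpt1a is widely expressed and best known from liver, Cpt1b from muscle and Cpt1c from neurons, where the CPT1C protein lies mainly in the endoplasmic reticulum and has little of the transferase activity of its relatives.

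Of the 8 genes, Cpt1c had the largest difference between p53-/- and p53+/+ NPCs. It was 3.40-fold lower in p53-/- NPCs alone and 2.97-fold lower in co-culture, while Cpt1a was not called in either culture. Co-culture with bmvECs went with higher Cpt1c, Cpt2, Slc22a5, Crat and Crot in both genotypes, by 1.43 to 1.94-fold, whereas Cpt1a and Slc25a20 were not called. Cpt2 and Slc25a20 were also called lower in p53-/- than in p53+/+ co-cultures, by less than Cpt1c. Both of these calls were lost when any whole experiment was left out. In NPCs alone Cpt2 was called lower only in some alternative fits. Cpt1b was close to 0 in every library.

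**Figure D1:**
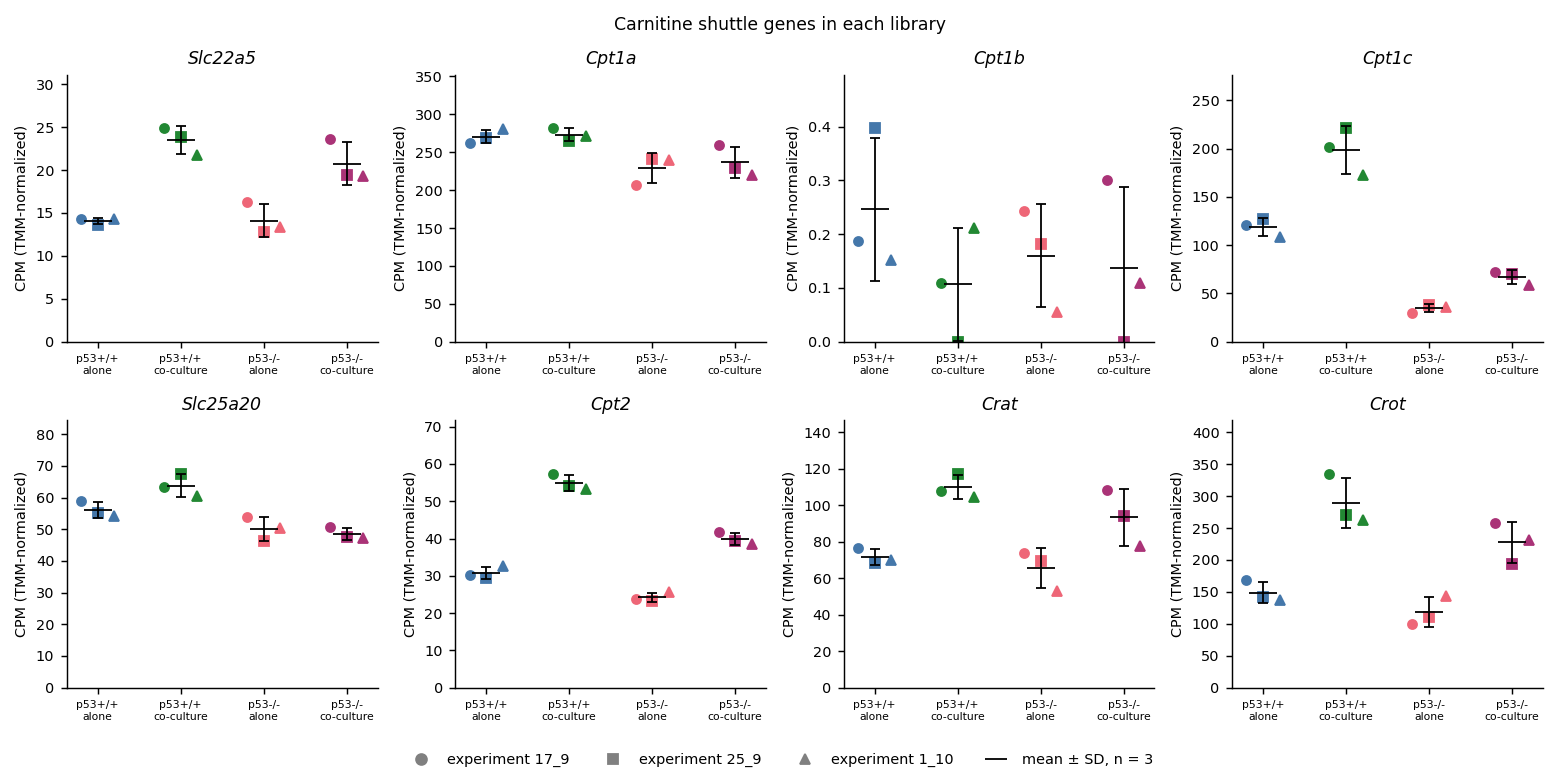
Level of each carnitine shuttle gene (vertical axes, CPM after TMM normalization, each from 0 and each on its own scale) in the 12 libraries, by group. Points are libraries, with 1 symbol per experiment, and bars are the mean ± SD of 3 libraries. The 4 groups of Cpt1c do not overlap, those of Cpt1a lie between 207 and 282 CPM, and no Cpt1b value is above 0.397 CPM.

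Genes were called at an adjusted p under 0.05 in the quasi-likelihood test of edgeR, fitted to all 12 libraries and adjusted over the 13745 genes that passed a filter on low counts. They include 7 of the shuttle genes, all but Cpt1b. Fold changes are given on the log2 scale with their SE. Slc22a5 encodes OCTN2, the sodium-dependent carrier that brings carnitine into the cell. In p53+/+ NPCs alone it was at 14.2, 13.6 and 14.3 CPM in the 17_9, 25_9 and 1_10 experiments, against 24.9, 23.9 and 21.7 CPM in co-culture. The p53-/- values were 16.3, 12.8 and 13.3 CPM alone and 23.6, 19.4 and 19.2 CPM in co-culture. Co-cultures were thus above cultures alone in both genotypes with no overlap, and the genotypes overlapped in NPCs alone and in co-culture. With co-culture Slc22a5 rose by 0.74 ± 0.14 (adjusted p = 0.00139) in p53+/+ and by 0.56 ± 0.14 (adjusted p = 0.00896) in p53-/- NPCs. With p53 loss it differed by 0.01 ± 0.14 alone (adjusted p = 0.981) and by -0.18 ± 0.14 in co-culture (adjusted p = 0.458). Without the 25_9 experiment both co-culture calls were lost, with an adjusted p of 0.0537 in p53+/+ and 0.112 in p53-/- NPCs.

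Cpt1a, which encodes the widely expressed CPT1 enzyme, varied least with co-culture. Its levels in the 17_9, 25_9 and 1_10 experiments were 262, 269 and 280.0 CPM in p53+/+ NPCs alone and 282, 265 and 271 CPM in p53+/+ co-cultures. They were 207, 241 and 239 CPM in p53-/- NPCs alone and 260, 229.5 and 221 CPM in p53-/- co-cultures. The 2 cultures overlapped in each genotype, whereas all p53-/- values lay below all p53+/+ values of the same culture. Cpt1a differed by 0.01 ± 0.10 (adjusted p = 0.938) with co-culture in p53+/+ and by 0.05 ± 0.10 (adjusted p = 0.765) in p53-/- NPCs. With p53 loss it differed by -0.24 ± 0.10 alone (adjusted p = 0.187) and by -0.21 ± 0.10 in co-culture (adjusted p = 0.245). A lower level in all 3 experiments was thus not enough for a call at this spread.

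Cpt1b, the muscle form, had 0 to 8 counts per library, or at most 0.397 CPM. In the GENCODE M21 annotation 82.1% of its exon bases are shared with a transcript of the same strand that reads through from Chkb, and reads in shared exons may go uncounted. The table lists this read-through gene at 0 and Chkb at 0 to 5 counts in every library. How much of the low level of Cpt1b comes from counting was not tested. A list of 10 striated muscle genes summed to 1.28 to 6.16 CPM.

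Cpt1c, the neuronal form, formed 4 levels. In p53-/- NPCs alone it was at 30.1, 38.3 and 36.3 CPM in the 17_9, 25_9 and 1_10 experiments, and in p53-/- co-cultures at 72.6, 69.7 and 58.3 CPM. In p53+/+ NPCs alone it was at 121, 127 and 109 CPM, and in p53+/+ co-cultures at 202, 221 and 173 CPM. No 2 groups overlapped, and in this order each group lay above the one before it. The mean of p53-/- co-cultures, 66.9 ± 7.52 CPM, was 56.3% of that of p53+/+ NPCs alone, 119 ± 9.26 CPM. Cpt1c fell by 1.77 ± 0.14 with p53 loss in NPCs alone (adjusted p = 1.18e-05) and fell by 1.57 ± 0.14 in co-culture (adjusted p = 3.89e-05). By p it was in place 12 and 13 among all genes tested. It ranked lower by size, in place 118 of the 587 genes called lower alone and 139 of the 677 called lower in co-culture. Its fall was between -2.01 and -1.58 in the 3 experiments alone and between -1.67 and -1.47 in co-culture.

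With co-culture Cpt1c rose by 0.74 ± 0.13 (adjusted p = 0.00102) in p53+/+ and by 0.94 ± 0.14 (adjusted p = 0.000328) in p53-/- NPCs. The difference between these, the interaction, was 0.20 ± 0.19 (adjusted p = 0.855) and was not called. The annotation places an antisense gene, 6530437J22Rik, over 13.1% of the exon bases of Cpt1c. The strand setting of the authors' counting is not given in the sources used here, so reads of both may be mixed there. Neuronal markers, which bear on a gene known from neurons, summed to 643 to 705 CPM in p53+/+ and 651 to 752 CPM in p53-/- NPCs alone. With p53 loss, 1 of 10 tested neuronal markers was called higher and 0 lower in each culture, while blocking on the experiment gave 2 higher and 2 lower alone and 3 higher and 2 lower in co-culture. Over all genes the main fit called 2.02% higher and 4.27% lower alone, and 3.24% higher and 4.93% lower in co-culture. The blocked fit called 7.25% higher and 9.33% lower alone, and 9.99% higher and 10.9% lower in co-culture. Endothelial markers were at 18.1 to 20.7 CPM in p53+/+ and 16.7 to 22.0 CPM in p53-/- NPCs alone. With p53 loss 0 of 18 were called in either culture (1 lower in co-culture with the block). In co-culture 16 of the 18 nevertheless had a negative log2 fold change, at a median of -0.34, beside 0.02 over all genes. The part of this shift in the differences between p53-/- and p53+/+ co-cultures was not tested. Mural and fibroblast markers reached 692 CPM in 1 library of p53+/+ NPCs alone and 1227 CPM in 1 of p53-/- NPCs alone, with 2 of 8 called higher with p53 loss alone and 0 in co-culture (3 higher and 1 lower there with the block), and their part in the result was not tested. Cpt1c was called in all 4 comparisons under every alternative fit run.

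Since Cpt1c and Cpt1a are paralogs of which the first was called and the second was not, their promoters are shown here. The windows run from 250 bases before to 50 bases after the start in RefSeq for GRCm38.p6, each printed along its gene, at chr7:44974802-44975101 on the minus strand for Cpt1c and at chr19:3323051-3323350 on the plus strand for Cpt1a. Capitals mark AGGTCA, the half-site of nuclear receptors such as the PPARs, and GGGCGG, the GC box, on either strand. These matches do not overlap each other.
Cpt1c promoter: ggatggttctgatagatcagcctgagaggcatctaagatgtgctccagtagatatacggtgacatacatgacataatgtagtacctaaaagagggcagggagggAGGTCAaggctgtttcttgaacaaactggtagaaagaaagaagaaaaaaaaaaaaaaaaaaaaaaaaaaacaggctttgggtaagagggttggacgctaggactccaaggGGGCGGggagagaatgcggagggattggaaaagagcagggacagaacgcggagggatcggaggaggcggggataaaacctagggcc
Cpt1a promoter: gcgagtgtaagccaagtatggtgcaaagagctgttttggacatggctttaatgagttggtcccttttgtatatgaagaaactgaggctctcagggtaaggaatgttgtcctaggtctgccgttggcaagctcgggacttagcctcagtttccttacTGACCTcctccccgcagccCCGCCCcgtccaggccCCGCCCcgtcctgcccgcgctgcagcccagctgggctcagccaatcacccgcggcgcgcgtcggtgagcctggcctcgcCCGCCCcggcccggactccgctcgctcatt
The Cpt1c window holds AGGTCA at 146 and GGGCGG at 36 bases before the start, with 47.3% G and C. That of Cpt1a holds AGGTCA at 94 bases before the start and GGGCGG at 75 and 59 bases before and 20 bases after it, all on the opposite strand, with 62.3% G and C. Of 32851 promoters of this length, 16.3% hold AGGTCA and 35.7% hold GGGCGG. The half-site of the p53 binding motif, held by 8.36% of promoters, was found in none of the 6 shuttle genes with a window. These are matches of letters in short windows and say nothing of binding. Windows were found for 6 of 8 genes, with none for Cpt1b and Crat.

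The balance of both CPT1 forms was followed as the number of Cpt1c reads per 100 Cpt1a reads in each library, which needs no scaling between libraries. It was 46.1, 47.1 and 38.8 in p53+/+ NPCs alone (17_9, 25_9 and 1_10 experiments) and 71.5, 83.6 and 63.6 in co-culture. In p53-/- NPCs it was 14.5, 15.9 and 15.2 alone and 27.9, 30.4 and 26.5 in co-culture. The ratio is a description and was not tested. Per kb of exon, where genes can be compared, Cpt1c stood at 79.0 ± 8.16 per 100 Cpt1a in p53+/+ NPCs alone, 131 ± 18.1 in p53+/+ co-cultures, 27.3 ± 1.20 in p53-/- NPCs alone and 50.7 ± 3.53 in p53-/- co-cultures. Cpt1c per kb thus exceeded Cpt1a per kb only in p53+/+ co-cultures, in each of the 3 libraries. This crossing rests on the lengths used, 2.797 kb for Cpt1c and 5.023 kb for Cpt1a, over all coding transcripts in GENCODE M21. The counts were made on mm9 with an annotation that is not given. Other lengths, or antisense reads counted for Cpt1c, could move it.

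**Figure D2:**
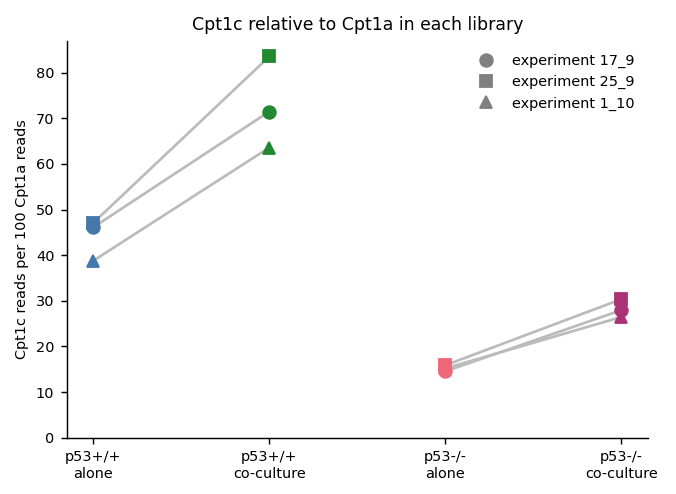
Cpt1c reads per 100 Cpt1a reads (vertical axis, from 0) in the 12 libraries, by group. Symbols mark the experiment, and lines join libraries of 1 genotype and experiment. All 6 p53-/- libraries, at 14.5 to 30.4, lie below all 6 p53+/+ libraries, at 38.8 to 83.6, and every line goes up with co-culture.

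Slc25a20 encodes CACT, the carnitine-acylcarnitine carrier of the inner membrane. It was at 59.0, 55.2 and 54.1 CPM in p53+/+ NPCs alone and 63.4, 67.5 and 60.5 CPM in p53+/+ co-cultures, in the 17_9, 25_9 and 1_10 experiments. Its p53-/- values were 53.9, 46.4 and 50.4 CPM alone and 50.7, 47.7 and 47.2 CPM in co-culture. Both genotypes separated fully in co-culture, and all p53-/- values alone lay just below those of p53+/+. Slc25a20 fell by 0.40 ± 0.10 with p53 loss in co-culture (adjusted p = 0.0332) and differed by -0.16 ± 0.10 with p53 loss alone (adjusted p = 0.369). The call in co-culture was lost when either the 17_9 (0.104) or 25_9 (0.123) library of p53+/+ co-cultures was left out, or the 25_9 (0.107) or 1_10 (0.101) library of p53-/- co-cultures, as adjusted p. It was also lost without the 25_9 (0.0528) or 1_10 (0.0504) library of p53+/+ NPCs alone, and without any whole experiment (0.0891 to 0.462). With co-culture Slc25a20 differed by 0.19 ± 0.10 in p53+/+ (adjusted p = 0.164) and by -0.05 ± 0.10 in p53-/- NPCs (adjusted p = 0.742), and the interaction was -0.24 ± 0.14 (adjusted p = 0.778).

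Cpt2 encodes the transferase that releases the acyl group to CoA in the matrix. Its levels were 30.3, 29.4 and 32.6 CPM in p53+/+ NPCs alone and 57.4, 54.1 and 53.3 CPM in p53+/+ co-cultures, in the 17_9, 25_9 and 1_10 experiments. They were 23.7, 23.2 and 25.6 CPM in p53-/- NPCs alone and 41.8, 39.4 and 38.4 CPM in p53-/- co-cultures. As for Cpt1c, no 2 of the 4 groups overlapped, but the order differed: p53-/- co-cultures lay above p53+/+ NPCs alone, at 130% of their mean. Cpt2 rose by 0.84 ± 0.10 with co-culture in p53+/+ (adjusted p = 6.58e-05) and by 0.72 ± 0.10 in p53-/- NPCs (adjusted p = 0.000272). It fell by 0.46 ± 0.10 with p53 loss in co-culture (adjusted p = 0.0158), a call lost without the 17_9 (0.0842) or 25_9 (0.0565) library of p53+/+ co-cultures, the 25_9 (0.0645) or 1_10 (0.0623) library of p53-/- co-cultures, or any whole experiment (0.0818 to 0.341). In NPCs alone the difference was -0.35 ± 0.10 (adjusted p = 0.0642). There it was called only when the experiment number was kept as a block, at -0.35 ± 0.10 (adjusted p = 0.0291), or under other settings given at the end. The difference was nearly the same in each experiment, -0.35, -0.34 and -0.35 alone and -0.46, -0.45 and -0.47 in co-culture.

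Crat encodes carnitine acetyltransferase, which moves short acyl groups, and Crot the peroxisomal carnitine octanoyltransferase, which moves medium-chain ones. Crat was at 76.4, 68.5 and 69.9 CPM in p53+/+ NPCs alone and 108, 117 and 105 CPM in p53+/+ co-cultures, in the 17_9, 25_9 and 1_10 experiments. In p53-/- NPCs it was at 73.7, 69.5 and 52.9 CPM alone and 108, 94.3 and 77.4 CPM in co-culture. The genotypes overlapped in each culture, while co-cultures lay above cultures alone in each genotype. Crat rose by 0.62 ± 0.15 with co-culture in p53+/+ (adjusted p = 0.00516) and by 0.51 ± 0.15 in p53-/- NPCs (adjusted p = 0.0164). Both calls were lost without the 25_9 experiment (adjusted p = 0.126 and 0.114). In p53-/- NPCs the call was also lost without the 17_9 experiment (0.0673), without the 17_9 co-culture library (0.0936) and without the 1_10 library of NPCs alone (0.0724). With p53 loss Crat differed by -0.13 ± 0.15 alone (adjusted p = 0.630) and by -0.24 ± 0.15 in co-culture (adjusted p = 0.337). An antisense gene lies over 6.11% of its exon bases in GENCODE M21.

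Crot was at 168, 141 and 138 CPM in p53+/+ NPCs alone and at 335, 270.5 and 263 CPM in p53+/+ co-cultures, in the 17_9, 25_9 and 1_10 experiments. Among p53-/- NPCs it was at 99.1, 110 and 144 CPM alone and at 258, 194 and 231 CPM in co-culture. It had the largest co-culture rise of the 7 tested genes in both genotypes, by 0.96 ± 0.16 in p53+/+ (adjusted p = 0.000667) and by 0.95 ± 0.16 in p53-/- NPCs (adjusted p = 0.000952), the latter close to the 0.94 of Cpt1c. With p53 loss it differed by -0.34 ± 0.16 alone (adjusted p = 0.226) and by -0.35 ± 0.16 in co-culture (adjusted p = 0.202). The genotypes overlapped alone and did not in co-culture.

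**Figure D3:**
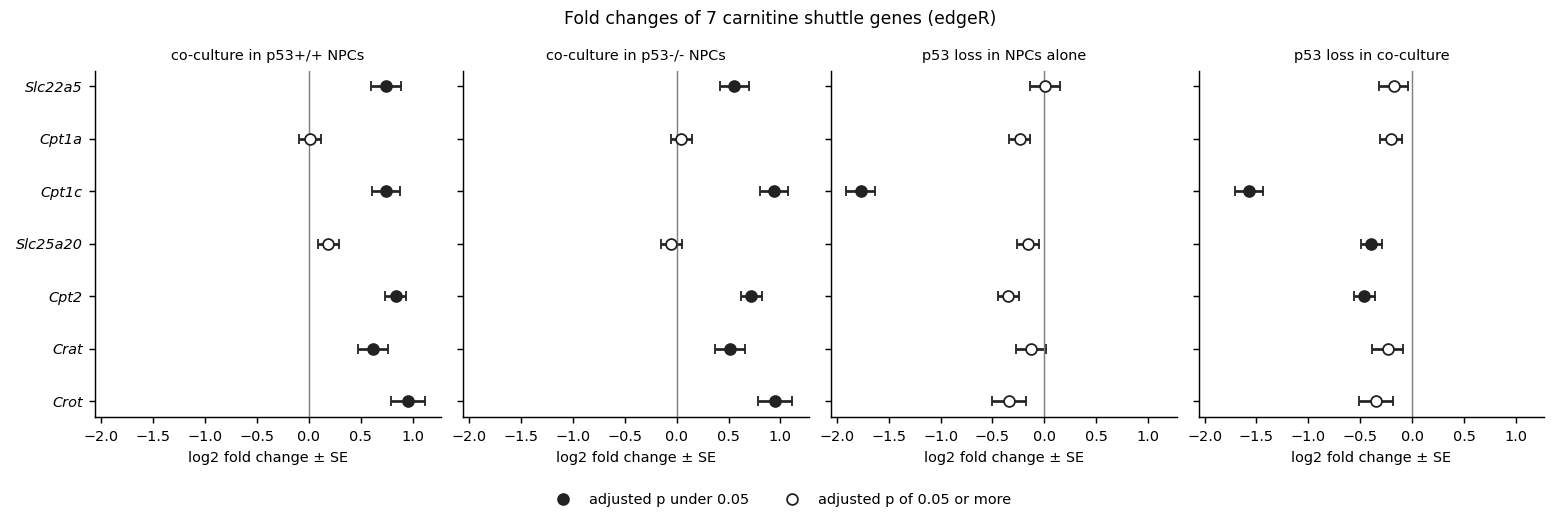
Log2 fold change ± SE (horizontal axes) of the 7 tested carnitine shuttle genes in 4 comparisons, from edgeR on 3 libraries per group. Filled points have an adjusted p under 0.05. Cpt1c lies at -1.77 and -1.57 with p53 loss, away from the other 6 genes, which lie between -0.46 and 0.01, and the 5 filled points of each co-culture comparison lie between 0.51 and 0.96.

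Since the genes were chosen with earlier results of these data known, counts set against all genes are a description. Read against all genes tested, 5 of 7 shuttle genes were called higher and 0 lower with co-culture in p53+/+ NPCs, where 21.2% of all genes were called higher and 18.3% lower. The same counts were found in p53-/- NPCs, against 18.8% of all genes higher and 17.0% lower. The median log2 fold change of the 7 genes was 0.74 and 0.56, beside 0.00 and -0.01 over all genes. Endothelial markers were called higher in 18 of 18 in p53+/+ and 17 of 18 in p53-/- NPCs, at a median of 3.89 and 3.52 on the log2 scale. Oligodendrocyte markers were called higher in 3 of 5 in each genotype, at a median of 1.20 and 1.10, with summed levels of 99.6 to 146 CPM alone and 297 to 329 CPM in co-culture for p53+/+ and of 74.4 to 133 and 224 to 304 CPM for p53-/- NPCs. Of 8 mural and fibroblast markers 3 were called higher in each genotype, with 1 lower in p53+/+ and 2 lower in p53-/- NPCs. The only microglial marker that could be tested was higher in both genotypes, in a list that summed to at most 5.31 CPM. The level of the shuttle genes in bmvECs was not analysed here, and the part of these cell types in the co-culture differences was not tested.

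With p53 loss in NPCs alone 1 of 7 shuttle genes was called lower and 0 higher, where 4.27% of all genes were called lower and 2.02% higher. With the experiment number as a block, 2 of 7 were called lower, against 9.33% of all genes. In co-culture 3 of 7 were called lower and 0 higher, where 4.93% of all genes were called lower and 3.24% higher. Medians were -0.24 and -0.35, beside 0.05 and 0.02 over all genes. Leaving aside calls, the groups did not overlap for 4 of 7 genes alone and 5 of 7 in co-culture, each time with p53-/- lower, against 12.4% and 16.9% of all genes. In the interaction 0 of 7 were called by edgeR and 0 by DESeq2, 0 had an unadjusted p under 0.05, and 0.0364% of all genes were called in either direction. The comparisons within 1 culture share no libraries with those of the other culture, but each shares its libraries with the co-culture comparisons.

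**Figure D4:**
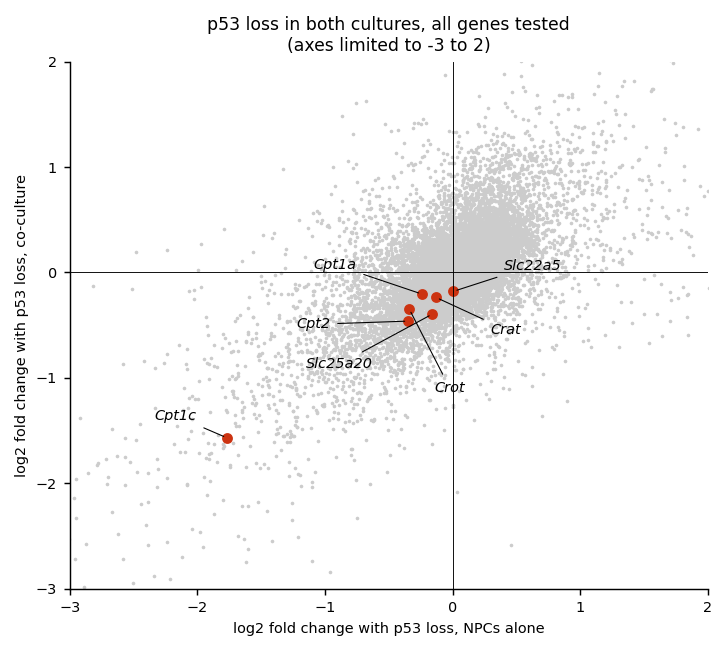
Log2 fold change with p53 loss in NPCs alone (horizontal axis) and in co-culture (vertical axis) of all 13745 genes tested (grey) and 7 carnitine shuttle genes (red), with 118 genes outside the axes, which run from -3 to 2. Cpt1c lies at -1.77 and -1.57, to the lower left of the dense part of the cloud, with other genes beyond it in both cultures, and the other 6 shuttle genes lie within that dense part.

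Genes around the shuttle were read from lists. Among genes of carnitine synthesis and of other carnitine carriers, 5 of 9 could be tested, and 2 were called higher with co-culture in p53+/+, 1 in p53-/- NPCs. Over all genes 21.2% were called higher in p53+/+ and 18.8% in p53-/- NPCs. Slc22a4, the carrier related to Slc22a5, rose by 2.40 ± 0.22 (adjusted p = 7.27e-06) and by 1.80 ± 0.22 (adjusted p = 9.82e-05), from a mean of 6.85 to 36.4 CPM in p53+/+ and from 4.78 to 16.7 CPM in p53-/- NPCs. It was the only one of the 5 called with p53 loss, with a fall in co-culture of 1.12 ± 0.21 (adjusted p = 0.00775). Over all genes 4.93% were called lower there. In the blocked fit 1 of the 5 was called lower with p53 loss alone and 2 in co-culture, beside 9.33% and 10.9% of all genes. Aldh9a1, an aldehyde dehydrogenase of carnitine synthesis, rose by 0.67 ± 0.11 in p53+/+ NPCs (adjusted p = 0.000415).

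Among 12 genes that make, remove or control malonyl-CoA, 4 were called higher with co-culture in p53+/+ and 3 in p53-/- NPCs, with 0 lower. Over all genes 21.2% and 18.8% were called higher and 18.3% and 17.0% lower, in that order. The median log2 fold change of the 12 was -0.08 in p53+/+ and -0.05 in p53-/- NPCs. The genes called higher include some of opposite roles. Acacb, the acetyl-CoA carboxylase that makes malonyl-CoA near CPT1, rose by 2.35 ± 0.39 and 1.79 ± 0.38 (adjusted p = 0.000536 and 0.00321) at low levels of 1.42 to 7.28 CPM as group means. Mlycd, which breaks malonyl-CoA down, rose by 0.64 ± 0.19 in p53+/+ NPCs (adjusted p = 0.0181). Acsf3, a mitochondrial malonyl-CoA synthetase, rose by 0.79 ± 0.14 and 0.53 ± 0.14 with co-culture and fell by 0.58 ± 0.14 with p53 loss in co-culture (adjusted p = 0.000827, 0.0110 and 0.0234). Prkag2, a subunit of AMP-activated kinase, rose by 0.36 ± 0.11 and 0.32 ± 0.11 (adjusted p = 0.0232 and 0.0410). With p53 loss alone 0 of 12 were called, beside 4.27% of all genes lower and 2.02% higher. In co-culture 1 of 12 was called lower, beside 4.93% of all genes. With the block, 4 were called higher and 2 lower with co-culture in p53-/- NPCs, where it called 24.3% of all genes higher and 23.2% lower.

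Of 7 acyl-CoA synthetases, which activate fatty acids before the shuttle, 3 were called higher and 1 lower with co-culture in each genotype, and 0 with p53 loss in either culture. With co-culture 21.2% of all genes were called higher and 18.3% lower in p53+/+, and 18.8% and 17.0% in p53-/- NPCs. Acsl6 rose by 1.79 ± 0.14 (adjusted p = 1.76e-06) and 1.43 ± 0.14 (adjusted p = 1.36e-05), while Acsl4 fell by 0.95 ± 0.25 (adjusted p = 0.00879) and 0.83 ± 0.24 (adjusted p = 0.0186) in p53+/+ and p53-/- NPCs. With the block, 2 were called higher with p53 loss alone and 1 in co-culture, and 2 were called lower with co-culture in p53-/- NPCs, beside blocked shares over all genes of 7.25%, 9.99% and 23.2%.

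Of 16 genes of mitochondrial β-oxidation, downstream of the shuttle, 9 were called higher with co-culture in p53+/+ and 10 in p53-/- NPCs, with 0 lower. Over all genes 21.2% and 18.8% were called higher, in that order. Acadvl, the very-long-chain acyl-CoA dehydrogenase, rose by 0.76 ± 0.14 and 0.61 ± 0.14 (adjusted p = 0.000837 and 0.00421). With p53 loss alone only Hadhb, the β-subunit of the trifunctional protein, was called, with a fall of 0.45 ± 0.12 (adjusted p = 0.0414). In co-culture Decr1, Acadm and Acadvl fell by 0.61 ± 0.15, 0.51 ± 0.13 and 0.50 ± 0.13 (adjusted p = 0.0241, 0.0269 and 0.0388). Over all genes 4.27% were called lower alone and 4.93% in co-culture in this fit. Under the block 2 of 16 were called lower alone and 5 of 16 in co-culture, beside 9.33% and 10.9% of all genes. In the main fit all 16 log2 fold changes with p53 loss in co-culture were negative. Their median was -0.23, beside -0.35 for the 7 tested shuttle genes and 0.02 over all genes.

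Of 11 tested genes of peroxisomal β-oxidation, whose shortened acyl chains Crot passes to carnitine, 9 were called higher with co-culture in p53+/+ and 7 in p53-/- NPCs, with 0 lower. The shares of all genes called higher were 21.2% and 18.8%. Abcd2, a peroxisomal fatty acyl carrier, rose by 1.68 ± 0.17 and 1.47 ± 0.17 (adjusted p = 1.85e-05 and 6.56e-05). With p53 loss Acox3, a peroxisomal acyl-CoA oxidase, fell by 0.56 ± 0.14 alone (adjusted p = 0.0346), and Scp2, which carries the thiolase of branched chains, by 0.40 ± 0.10 in co-culture (adjusted p = 0.0234). In all, 2 of 11 were called lower in each culture, beside 4.27% of all genes alone and 4.93% in co-culture. Under the block 4 of 11 were called lower in co-culture, beside 10.9% of all genes.

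Of 10 tested PPAR regulators, which control many genes of this pathway, Ppara rose with co-culture by 0.79 ± 0.29 (adjusted p = 0.0466) in p53+/+ and by 1.07 ± 0.30 (adjusted p = 0.0143) in p53-/- NPCs, from means of 6.34 and 4.83 to 11.03 and 10.1 CPM. Ppargc1a, which encodes the coactivator PGC1α, was at 99.2, 70.3 and 75.3 CPM in p53+/+ and at 42.4, 49.5 and 57.9 CPM in p53-/- NPCs alone, with no overlap. It fell by 0.71 ± 0.18 with p53 loss alone (adjusted p = 0.0333) and differed by -0.10 ± 0.18 in co-culture (adjusted p = 0.764). For Ppargc1a the interaction was 0.61 ± 0.25 (adjusted p = 0.690), so these were not shown to differ. Of these 10, 2 were called higher and 1 lower with co-culture in p53+/+ NPCs, beside 21.2% and 18.3% of the genes tested. In p53-/- NPCs 3 were called higher and 0 lower, beside 18.8% and 17.0%. With p53 loss alone 0 were called higher and 1 lower, beside 2.02% and 4.27%. With p53 loss in co-culture 0 were called, beside 3.24% higher and 4.93% lower. Under the block, co-culture gave 3 higher and 1 lower in p53+/+ NPCs, for which no blocked share over all genes was counted. It gave 4 and 0 in p53-/- NPCs, beside blocked shares of 24.3% and 23.2%. The block left the counts with p53 loss unchanged.

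**Figure D5:**
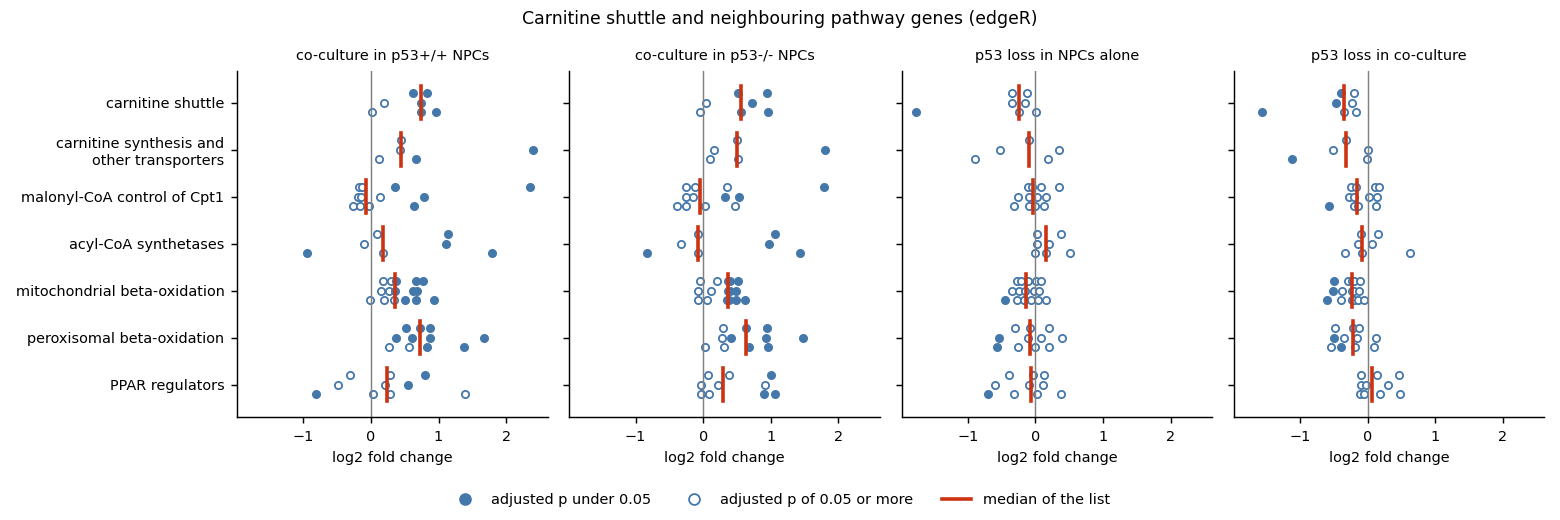
Log2 fold change (horizontal axes) of each tested gene of the carnitine shuttle and of 6 neighbouring lists in 4 comparisons, with filled points for an adjusted p under 0.05 in edgeR and a red line at the median of each list. With p53 loss Cpt1c is the point farthest to the left in both right-hand panels, at -1.77 and -1.57.

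Over the 12 libraries, the genes whose log2 CPM followed Cpt1c most closely, among 11099 genes with a mean of at least 2, were Serpine2, Tmem127, Mapkapk3, Sulf2 and Ankrd42, with Pearson's r from 0.980 to 0.988. Serpine2 encodes a secreted protease inhibitor, Mapkapk3 a kinase downstream of p38 and Sulf2 an extracellular heparan sulfatase. All 5 were called lower with p53 loss in both cultures, by 0.55 to 1.22 alone and 0.52 to 1.04 in co-culture on the log2 scale. Over all genes 4.27% were called lower alone and 4.93% in co-culture. Because the 5 were chosen for following Cpt1c in these same libraries, their fall is part of that choice and not a separate result. These r values are a description over libraries that share the 4 groups. When the group means were taken off first, r with Cpt1c was 0.753, 0.831, 0.495, 0.827 and 0.676 for the 5 genes, in the order named. By that measure 0 of the 5 were among the 5 most alike. Among the shuttle genes, r was highest for Cpt2 with Crot, at 0.951, and lowest for Cpt1a with Slc22a5, at 0.196.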

How the data were processed

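Libraries were stranded mRNA libraries with paired 100-base reads. The submitters' processing notes name mm9, TopHat2 2.0.11 for alignment and HTSeq 0.6.1 for counting. The deposited values are raw counts. Not given in the sources used here are the strand setting, the gene annotation and the design the authors used in DESeq2. Columns were matched to groups by the key of the supplementary table, and 0 columns of values were left unmatched. Whether the 3 libraries of a group came from separate animals is not stated, so p-values measure only the spread between them.

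Low-count genes were removed with filterByExpr in edgeR 4.0.16 under R 4.3.3, which left 13745 of 18810 genes with a count. Counts were scaled by TMM (factors 0.961 to 1.04) and fitted by the quasi-likelihood method with 1 coefficient per group. Benjamini-Hochberg adjustment was applied within each of the 5 comparisons, with a threshold of 0.05. The shuttle genes and the lists were chosen with earlier results of these data known. Named genes are the 8 shuttle genes, up to 4 called genes per list and comparison with the lowest adjusted p (of which those with clear roles are named), the 5 genes most like Cpt1c, and Trp53, Cdkn1a, Ppargc1a, Ppara and Chkb. A gene that meets this rule is not reported here. Exon lengths and overlaps came from GENCODE M21 (GRCm38), by symbol and without coordinates.

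The experiment number pairs the libraries, as the key of the supplementary table states. Deviations from group means correlated in all 18 pairs with the same number (r from 0.132 to 0.604) and at r from -0.587 to 0.235 in 36 pairs with different numbers. Libraries of 1 group differed by 13.3 to 64.1 times the counting variance, so none is a copy. Alternatives were the block, DESeq2 1.42.0, scaling by library size alone, by upper quartile or by the size factors of DESeq2, other filters, a fit restricted to the groups compared, a threshold of 0.01, a 2-fold limit, and leaving out each library or experiment. Only the main edgeR fit, without the block, was run on simulated data, and only for p53 loss in NPCs alone. Figures were drawn with matplotlib 3.10.9.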

Additional observations from a re-analysis of the deposited data

How the results depend on the processing

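Of 833 alternative values for single genes, 26 lost the call, 5 gained it and 802 kept their side of the threshold. The sign differed from the main value in 44, none of them called in either fit. They belong to Cpt1a with co-culture in both genotypes, Slc25a20 with co-culture in p53-/- NPCs, Slc22a5 with p53 loss alone, and the interactions of Cpt1a, Crat and Crot. With co-culture 5 genes were called higher in each genotype, 0 of them over 2-fold, and 3 to 5 when libraries or experiments were left out, the 3 without the 25_9 experiment. With p53 loss alone, 1 gene was called lower, and 2 with the replicate block, upper-quartile scaling, DESeq2 without the block and DESeq2 with the replicate block. Leaving out libraries gave 1 to 2, the 2 without the 1_10 library of p53-/- co-cultures. The added gene was Cpt2 each time. With p53 loss in co-culture, 3 genes were called lower, 1 at a threshold of 0.01, 1 over 2-fold, and 1 to 3 when libraries were left out, where 1 is Cpt1c alone. The block changed no other call of a shuttle gene. Crat with co-culture in p53-/- NPCs was not called in a fit of only the groups compared (adjusted p = 0.0538), nor was Slc25a20 with p53 loss in co-culture there (0.0528) or with no filter (0.0627). Fewer libraries or more genes tested enter these fits by construction, and other causes were not tested. Only Cpt1b, at 0 to 8 counts, was too low to be tested, and the parts of depth and of counting in this were not tested.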
